A study of Mus musculus with 58 samples.

Results

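Repeated oral benz(a)anthracene (BaA), one of the polycyclic aromatic hydrocarbons, left 10 genes of the Nrf2 antioxidant response and its surroundings without a called change at any dose wherever they could be tested in lung, liver and forestomach (all 10 in forestomach, and 9 in the other tissues, where Slc7a11 was too dim to test), while the same genes differed widely between the tissues of vehicle mice. The 10 genes were Nfe2l2 and Keap1 (the regulators), Gclc, Gclm, Slc7a11, Txnrd1, Srxn1, Hmox1 and Osgin1 (targets), and Ephx1 (microsomal epoxide hydrolase). Their probes were found by gene symbol, with no threshold on a measured value, through the transcript accession of each array probe. They were read by 12 of the 55681 gene probes on the array, and 26413 of those probes matched one of 20018 gene symbols. Hmox1 and Ephx1 had 2 probes each and the other genes had 1. Where a gene had 2, the probe with the higher mean signal over all arrays stands for the gene, and the other is given beside it where they differ.

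Male Muta™Mouse aged 10 weeks, a strain that carries a bacterial lacZ reporter in every cell of every group, vehicle mice included, were gavaged daily for 28 days with BaA in olive oil at daily doses of 0 (vehicle, D0), 20 (named D1), 40 (named D2) or 80 mg/kg of body weight (named D3), and tissues were taken 72 h after the last dose. RNA of each tissue (Cy5) was hybridised against 1 common reference, RNA pooled from mouse cell lines (Cy3), so that a value is the log2 ratio of tissue to reference and can be compared across arrays for 1 gene but not between genes. The 58 arrays came from 20 mice, and a mouse number stands for the same animal in all 3 tissues. Within a tissue each array was a separate mouse, and each dose group had 5 arrays per tissue, except 4 for D3 in liver and 4 for D0 in forestomach.

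Nfe2l2 encodes Nrf2, a transcription factor that Keap1 holds in the cytoplasm and hands to a ubiquitin ligase. Electrophiles and oxidants modify Keap1, Nrf2 then reaches the nucleus and, with small Maf proteins, binds antioxidant response elements of genes for glutathione synthesis, thioredoxin recycling and haem breakdown. Much of this control acts on the Nrf2 protein, which arrays do not measure. BaA is oxidised by Cyp1 enzymes, which the aryl hydrocarbon receptor (AhR) induces, and Ephx1 hydrolyses the epoxides formed to dihydrodiols, a step both of clearance and of activation to diol epoxides.

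Promoter windows of 300 bases, from 250 before to 50 after the annotated start, were found for 8 of the 10 genes in RefSeq's GRCm38.p6 annotation, 10 windows in all because Txnrd1 had several starts. Hmox1 and Gclc were not matched. The antioxidant response element core TGACNNNGC was searched on both strands and stood in 4 of the 10 windows (Gclm, Srxn1, Nfe2l2 and 1 of those of Txnrd1), against 12.4% of 32851 mouse windows. The core GCGTG of the element bound by AhR stood in 7 of the 10 (Gclm, Srxn1, Osgin1, Keap1 and all those of Txnrd1, which thus counts several times), against 32.4% of all windows. A related core, TGANTCA, chosen after the sequences were seen, stood in 2 of the 10 (Srxn1 and Osgin1), against 7.81% of all windows. These are letter matches and not binding sites. The windows of Gclm, Srxn1 and Osgin1, whose vehicle levels set tissues apart below, are shown as examples. Vehicle levels of Nfe2l2, Txnrd1, Slc7a11 and, on its second probe, Ephx1 also differed between tissues. The windows of Slc7a11 and Ephx1 held no match to any core. A link between matches and tissue levels was not tested. Capitals mark every match to one of the 3 cores on either strand. In Osgin1 the matches to TGANTCA and to GCGTG overlap.
Gclm, chr3:122245307-122245606, plus strand: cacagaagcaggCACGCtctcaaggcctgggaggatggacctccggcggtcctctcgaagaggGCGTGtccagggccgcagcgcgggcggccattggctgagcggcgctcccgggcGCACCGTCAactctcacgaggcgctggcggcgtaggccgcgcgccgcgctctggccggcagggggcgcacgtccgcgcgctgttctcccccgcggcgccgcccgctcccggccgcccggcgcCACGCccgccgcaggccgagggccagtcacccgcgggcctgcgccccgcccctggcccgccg
Srxn1, chr2:152105274-152105573, plus strand: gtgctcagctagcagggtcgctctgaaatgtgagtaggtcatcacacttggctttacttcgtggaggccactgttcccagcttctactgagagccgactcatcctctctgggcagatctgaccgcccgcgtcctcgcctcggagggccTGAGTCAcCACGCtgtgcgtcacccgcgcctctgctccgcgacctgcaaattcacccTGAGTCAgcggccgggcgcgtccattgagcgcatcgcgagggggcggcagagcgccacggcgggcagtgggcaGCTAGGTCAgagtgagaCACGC
Osgin1, chr8:119436897-119437196, plus strand: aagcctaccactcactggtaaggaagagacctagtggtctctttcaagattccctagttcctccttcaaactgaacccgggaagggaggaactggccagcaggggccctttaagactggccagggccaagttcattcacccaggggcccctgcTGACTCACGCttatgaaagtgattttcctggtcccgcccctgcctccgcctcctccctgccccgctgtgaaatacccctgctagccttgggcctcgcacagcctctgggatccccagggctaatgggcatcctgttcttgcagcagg

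A probe was tested in a tissue when its Cy5 signal stood well above background on at least 4 arrays of that tissue, and was called at an adjusted p of at most 0.05 with a change of at least 1.5-fold in either direction (an adjusted p of at most 0.05 alone for the slope on dose). This left all 12 member probes in forestomach and 11 in each of the other tissues. Slc7a11 was the probe left out in lung and liver. The share of spots well above background was 38.4 to 69.2% on forestomach arrays, 44.4 to 55.2% on lung arrays and 34.1 to 45.7% on liver arrays. Surfactant and club cell genes stood at a mean log2 ratio of 6.86 to 7.32 on the lung arrays, and 5 hepatocyte genes at 6.78 to 7.38 on the liver arrays. Squamous epithelium genes (Krt5, Krt14, Krt13, Krt4 and Trp63) stood at 4.44 to 5.55 on the forestomach arrays, so each label matched its tissue.

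Some arrays held RNA of other cells as well. The mean log2 ratio of 9 genes of the glandular stomach (among them Atp4a, Gkn1 and Tff2), called the glandular score below, ran from 0.67 to 3.15 on 9 forestomach arrays and from 5.22 to 6.54 on the other 10. The second kind made up 1 of 4 arrays at D0, 5 of 5 at D1, 2 of 5 at D2 and 2 of 5 at D3, and all 6 arrays of 1 of the 3 forestomach slides. The lung array of vehicle mouse 5 had a squamous score of 4.57 against a lung median of -0.66, and that of D2 mouse 14 a fat score of 6.66 against a median of 2.60. The highest squamous score on a D3 lung array was 1.77. In whole tissue, fewer cells of a type and less RNA per cell cannot be told apart.

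**Figure D1:**
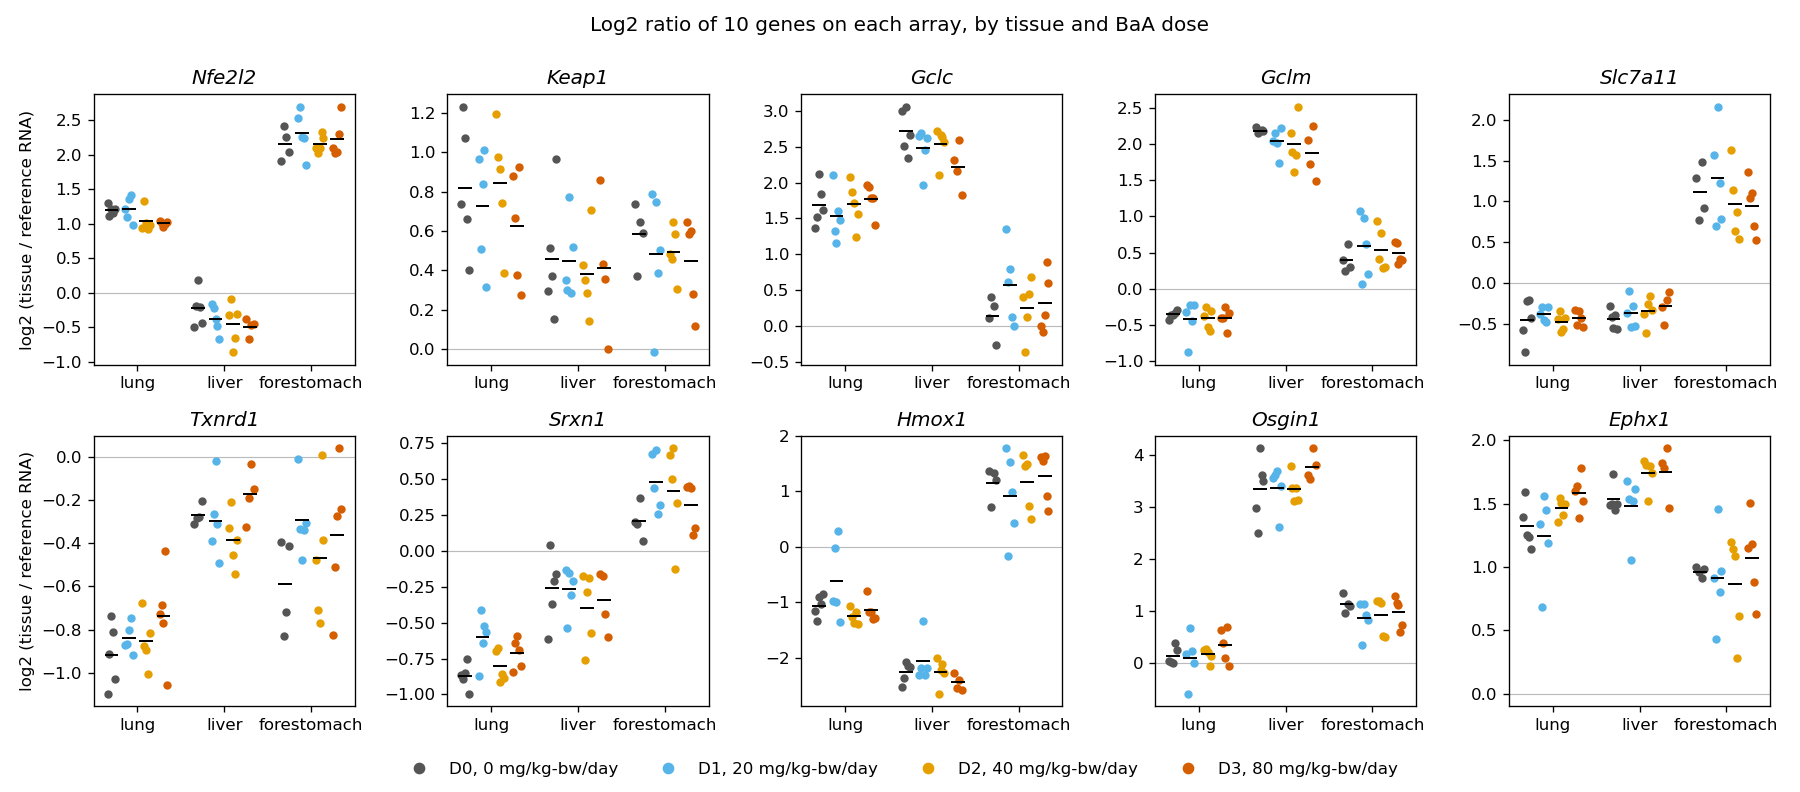
Log2 ratio of tissue to reference RNA on each of the 58 arrays for the 10 genes (1 probe each), with tissues along the horizontal axis, dose groups in colour and the group mean as a black bar; each panel has its own vertical scale. Nfe2l2 and Hmox1 were lowest in liver, Gclc, Gclm and Osgin1 highest there, and the dose groups of 1 tissue lay within or close to each other.

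No member probe was called in any of the 9 comparisons of a dose with vehicle. Over all probes tested in lung, the calls were 0% at D1, 0.556% at D2 and 1.88% at D3. In liver they were 0.241% at D1, 0.588% at D2 and 0.434% at D3. In forestomach they were 0% at D1, 0.0124% at D2 and 0.0248% at D3. With calls this rare, none among 11 or 12 probes lies near the background, and nothing particular to these genes follows from it. The slope on dose called 11.6% of all lung probes, 0.676% of those of liver and 0.0248% of those of forestomach, and no member probe in any of them. At an unadjusted p under 0.05 limma held 2 of the 11 member probes at D1, 0 at D2 and 1 at D3 in lung, and 2 for the lung slope. The same count over all 30383 lung probes was 2267, 4862 and 7254, and 7880 for the slope. In liver the member counts were 0, 0 and 1, with 2 for the slope, against 1713, 2909, 3417 and 3413 of 22789 probes. In forestomach they were 0 throughout, against 1427, 1063, 1652 and 1695 of 32318 probes. Other genes set the vehicle group apart in some tissues. The mean log2 ratio of 5 heat shock genes at D0 and D3 was 1.43 and -0.17 in lung, 0.43 and -0.09 in liver, and 1.35 and 0.38 in forestomach. That of 6 clock genes was 0.36 and 0.82 in lung, 0.63 and 0.66 in liver, and 0.22 and 0.56 in forestomach. In liver the clock values at D3 (0.61 to 0.73) lay inside the range at D0 (0.35 to 0.84). The bearing of the heat shock and clock genes on the member changes was not tested.

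**Figure D2:**
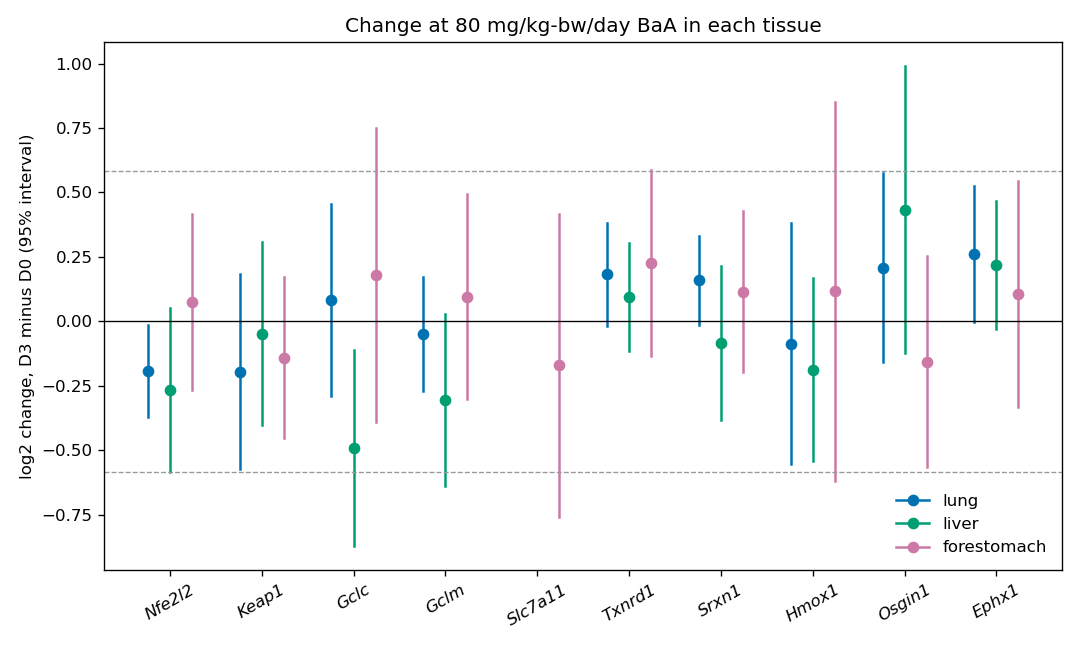
Log2 change at D3 (80 mg/kg-bw/day) against vehicle in each tissue, with the 95% interval of the limma fit; dashed lines mark 1.5-fold and Slc7a11 is shown for forestomach alone, where it was tested. The intervals of Nfe2l2 in lung (-0.37 to -0.02) and Gclc in liver (-0.87 to -0.11) left out 0 before correction for the number of probes.

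Between the tissues of vehicle mice, most member probes were called. Lung and liver differed for 8 of 11 member probes (46.6% of all probes), lung and forestomach for 8 of 12 (30.8%), and liver and forestomach for 8 of 12 (39.1%). Slc7a11 is among the 8 in both comparisons with forestomach, though its probe passed the filter through forestomach alone. The median change over member probes was -0.61 for lung minus liver (0.10 over all probes), -0.85 for lung minus forestomach (-0.02) and 0.10 for liver minus forestomach (-0.06). The genes below are taken by role, each with its vehicle levels and then its values under BaA.

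Nfe2l2, the gene for Nrf2, was highest in forestomach and lowest in liver. The vehicle arrays read 1.92, 2.42, 2.26 and 2.04 in forestomach, 1.30, 1.12, 1.22, 1.16 and 1.21 in lung, and -0.49, -0.19, 0.19, -0.21 and -0.43 in liver. The 3 ranges did not overlap, and the share of all probes with ranges apart in this way was not counted. Lung was 2.69-fold above liver (log2 1.43 ± 0.13 SE, adjusted p = 8.02e-14) and forestomach 5.23-fold above liver (liver minus forestomach -2.39 ± 0.14, adjusted p = 5.78e-21). Lung was 1.95-fold below forestomach (log2 -0.96 ± 0.14, adjusted p = 7.80e-08).

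Under BaA the lung level of Nfe2l2 was not called at any dose or for the slope. The D3 lung arrays read 1.04, 1.02, 0.96, 1.00 and 1.03, all 5 below all 5 vehicle arrays. The share of all lung probes that separated in this way was not counted. At D3, 7254 of 30383 lung probes had an unadjusted p under 0.05 in the limma fit. The mean was 1.2 ± 0.07 (SD, n = 5) at D0, 1.22 ± 0.18 at D1, 1.03 ± 0.17 at D2 and 1.01 ± 0.03 at D3. The log2 change at D3 was -0.19 ± 0.08 (SE, adjusted p = 0.17), and over the range of doses the slope gave -0.22 ± 0.08 (adjusted p = 0.083). Within the 3 lung slides, D3 minus D0 was -0.19, -0.22 and -0.18. With each array centred on its median in place of a loess curve the D3 change turned to 0.11 (adjusted p = 0.97). In liver the D3 change was -0.27 ± 0.15 (adjusted p = 0.44), with all 4 arrays below the vehicle mean, and in forestomach 0.07 ± 0.16.

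Keap1, the cytoplasmic partner that turns Nrf2 over, was called between no pair of tissues. Vehicle means were 0.82 ± 0.33 (SD, n = 5) in lung, 0.59 ± 0.15 (n = 4) in forestomach and 0.46 ± 0.31 (n = 5) in liver. The largest difference, lung minus liver, was 0.36 with a 95% interval of 0.02 to 0.70 (adjusted p = 0.052). Its D3 changes were -0.14 in forestomach, -0.19 in lung and -0.05 in liver, with adjusted p-values of 1.00, 0.56 and 0.94.

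Gclc and Gclm encode the catalytic and the modifier subunit of glutamate-cysteine ligase, the first step of glutathione synthesis. Both were highest in liver. Gclc read 3.00, 2.50, 3.06, 2.35 and 2.66 on the vehicle liver arrays, 1.36, 1.52, 2.13, 1.85 and 1.62 on those of lung, and 0.11, 0.41, 0.28 and -0.26 on those of forestomach. The order was thus liver, lung and forestomach, and each step was called, with lung 2.03-fold below liver (adjusted p = 3.45e-05) and 2.94-fold above forestomach (adjusted p = 5.79e-08). Gclm read 2.23, 2.14, 2.18, 2.19 and 2.17 in vehicle liver, 0.40, 0.25, 0.62 and 0.30 in forestomach, and -0.43, -0.36, -0.36, -0.33 and -0.29 in lung. Here lung and forestomach changed places, since lung lay 5.80-fold below liver (adjusted p = 5.59e-21) and 1.68-fold below forestomach (adjusted p = 8.81e-05).

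In liver both subunits had their lowest means at D3. Gclc read 2.32, 2.16, 2.59 and 1.82 there, all below the vehicle mean of 2.72, although the groups overlapped. The D3 change was -0.49 ± 0.18 (SE, adjusted p = 0.20) and the slope over the dose range -0.44 ± 0.17 (adjusted p = 0.22). D3 minus D0 was -0.26, -0.50 and -0.84 within the 3 liver slides. Gclm read 2.06, 1.73, 2.25 and 1.48 at D3, with an SD of 0.34 (n = 4) against 0.03 (n = 5) at D0. Its D3 change was -0.30 ± 0.16 (adjusted p = 0.39). In lung the D3 changes were 0.08 ± 0.18 for Gclc and -0.05 ± 0.11 for Gclm.

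Slc7a11, the light chain of the cystine importer that feeds glutathione synthesis, was a forestomach transcript among these tissues. It read 1.29, 0.77, 1.48 and 0.92 on the vehicle forestomach arrays, each well above background. In vehicle liver it stood well above background on 0 of 5 arrays and in vehicle lung on 1 of 5. Forestomach was therefore at least 2.26-fold above liver, measured against the lowest Cy5 signal that counts as above background on each liver array. The measured log2 Cy5 means were 7.41 and 6.23, open to dye bias because dyes were not swapped. With 4 of the 5 lung arrays not well above background, no fold is given against lung. The fit called both differences, but its p-values are left out because the probe passed the filter through forestomach alone. In forestomach the D3 change was -0.17 ± 0.28 (adjusted p = 1.00).

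Txnrd1, the cytosolic thioredoxin reductase, and Srxn1, the sulfiredoxin that restores overoxidised peroxiredoxins, were lowest in lung. Txnrd1 read -1.10, -0.92, -0.74, -0.81 and -1.03 in vehicle lung and -0.31, -0.28, -0.28 and -0.20 in vehicle liver, where the fifth array had an outlier spot and gave no value. That difference was 1.57-fold (adjusted p = 1.52e-05), while forestomach lay between them and was called against neither. Srxn1 read 0.20, 0.18, 0.37 and 0.07 in vehicle forestomach and -0.87, -0.89, -0.85, -0.76 and -0.99 in vehicle lung, a 2.11-fold difference (adjusted p = 7.24e-10). Vehicle liver ran from -0.61 to 0.04 for Srxn1, 1.53-fold above lung (adjusted p = 2.13e-05).

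Srxn1 had the smallest unadjusted p of all members at D1 in lung, where the arrays read -0.87, -0.41, -0.64, -0.52 and -0.57. The change was 0.27 ± 0.08 (SE), with an unadjusted p of 0.0039 and an adjusted p of 0.39 in the limma fit. It was 0.07 at D2 and 0.16 at D3, so that the D1 value was not followed by larger ones. For Txnrd1 the lung D3 difference was 0.18 ± 0.10 (adjusted p = 0.26).

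Hmox1 encodes haem oxygenase 1, which splits haem into biliverdin, iron and carbon monoxide and is abundant in macrophages that take up red cells. Its brighter probe was highest in forestomach. The vehicle arrays read 1.37, 0.72, 1.32 and 1.2 in forestomach, -1.16, -1.33, -0.90, -1.04 and -0.85 in lung, and -2.53, -2.36, -2.08, -2.15 and -2.16 in liver. Forestomach was 10.6-fold above liver (adjusted p = 6.78e-16) and 4.63-fold above lung (adjusted p = 1.11e-09), and lung 2.29-fold above liver (adjusted p = 5.41e-05). The second probe kept forestomach on top but put lung below liver (-1.41 ± 0.19 against -1.02 ± 0.34, SD, n = 5 each, adjusted p = 0.048, under 1.5-fold), so the order of lung and liver is uncertain.

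In lung, Hmox1 stood out on 2 of the 5 D1 arrays. Mouse 9 read 0.29 and mouse 7 -0.02, while the other 18 lung arrays lay between -1.38 and -0.80. The D1 change was 0.45 ± 0.22 (SE, adjusted p = 0.69), with an SD of 0.71 at D1 against 0.20 at D0, and 0.28 ± 0.11 (adjusted p = 0.57) on the second probe. Within the 3 slides, D1 minus D0 was 0.26, 0.55 and 0.27. The same mice had the highest macrophage scores (mean log2 ratio of Adgre1, Marco, Csf1r, Cd163 and Lyz2), 2.83 and 2.90 against 1.63 to 2.47 on the other lung arrays. Their scores of 6 AhR-responsive genes (Cyp1a1, Cyp1b1, Cyp1a2, Ahrr, Tiparp and Nqo1) were 1.22 and 0.77. Mouse 8, also at D1, had an AhR score of 0.95 with Hmox1 at -0.99 and a macrophage score of 2.40. The 17 lung arrays besides these 3 had AhR scores from -0.37 to 0.27. In liver the highest Hmox1 value, -1.34, came from D1 mouse 8, with a macrophage score of 1.33 against a liver median of 0.55. The highest liver macrophage score, 1.62, was that of D2 mouse 11, where Hmox1 read -2.01. The part of macrophages in these Hmox1 values was not tested.

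**Figure D3:**
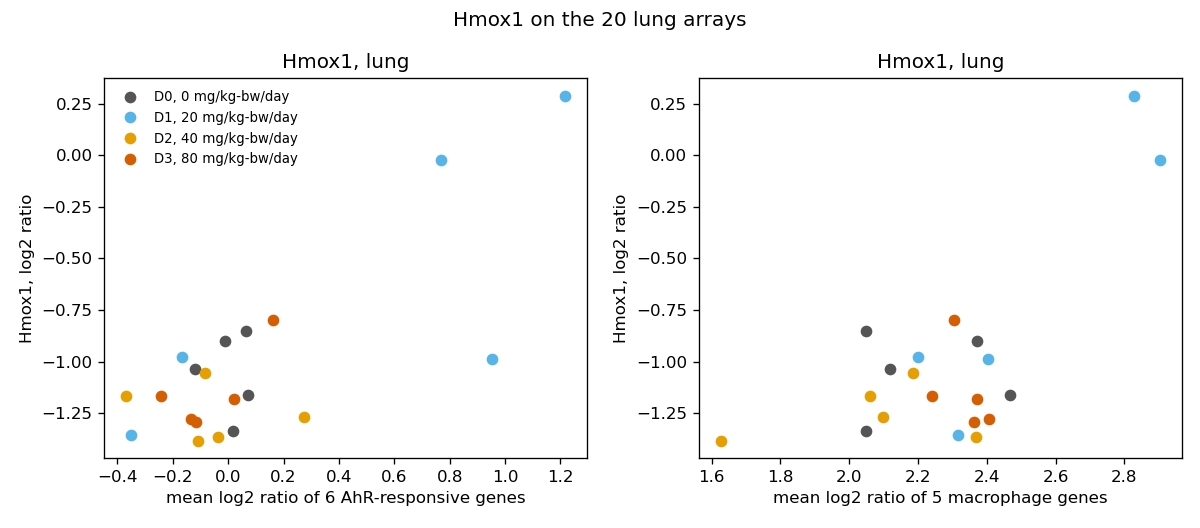
Hmox1 log2 ratio on the 20 lung arrays against the mean log2 ratio of 6 AhR-responsive genes (left) and of 5 macrophage genes (right), coloured by dose. The 2 D1 arrays at -0.02 and 0.29 lie apart from the rest, and another D1 array, with an AhR score of 0.95, had Hmox1 at -0.99.

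Osgin1, a growth inhibitor named for its response to oxidative stress, was the target with the widest gap between lung and liver. Its vehicle arrays read 2.98, 2.50, 4.13, 3.62 and 3.50 in liver, 1.35, 0.95, 1.13 and 1.09 in forestomach, and 0.03, 0.03, 0.01, 0.38 and 0.25 in lung. Lung was 9.22-fold below liver (log2 -3.20 ± 0.22 SE, adjusted p = 6.67e-19) and 1.99-fold below forestomach (adjusted p = 2.34e-04). At D3 the liver arrays read 3.62, 3.53, 4.14 and 3.82, all above the vehicle mean of 3.35 and inside the vehicle range or just past it. The D3 change was 0.43 ± 0.27 (adjusted p = 0.48) in liver, 0.21 ± 0.18 (adjusted p = 0.51) in lung and -0.16 ± 0.19 (adjusted p = 1.00) in forestomach.

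Ephx1 passed the test for a slope in lung under some settings and not under others. Its brighter probe read 1.39, 1.59, 1.25, 1.24 and 1.15 at D0, 1.34, 0.68, 1.56, 1.45 and 1.19 at D1, 1.35, 1.54, 1.51, 1.41 and 1.5 at D2, and 1.60, 1.64, 1.39, 1.78 and 1.52 at D3. All 5 D3 arrays lay above the vehicle mean of 1.32, though the ranges overlapped. The D3 change was 0.26 ± 0.13 (SE, adjusted p = 0.21), and the slope over the dose range was 0.31 ± 0.12 (adjusted p = 0.096). The slope passed an adjusted p of 0.05 with the authors' own log2 ratios (0.39 ± 0.13, adjusted p = 0.0456), with slide as a block (0.31 ± 0.10, adjusted p = 0.0457) and without D1 mouse 7. It did not pass with processed signals (0.32 ± 0.11, adjusted p = 0.061), with normexp (0.31 ± 0.12, adjusted p = 0.095) or with median centring (0.52 ± 0.41, adjusted p = 0.98). Within the 3 slides, D3 minus D0 was 0.26, 0.53 and 0.13. The second Ephx1 probe gave a lung slope of 0.21 ± 0.11 (adjusted p = 0.23) and did not pass in any of these settings. In the main setting 11.6% of all lung probes had a slope on dose, so 1 passing probe among 11 lies near that share.

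In liver the Ephx1 slope over the dose range was 0.27 ± 0.12 (adjusted p = 0.27), and 0.10 (adjusted p = 0.88) with median centring. On the second probe these slopes were 0.15 and 0.01. The D3 change was 0.22 ± 0.12 in liver (adjusted p = 0.41) and 0.11 ± 0.21 in forestomach (adjusted p = 1.00). In vehicle mice the brighter probe called no pair of tissues, with means of 1.53 in liver, 1.32 in lung and 0.96 in forestomach. The second probe put liver 1.92-fold above lung (adjusted p = 5.91e-05) and 2.06-fold above forestomach (adjusted p = 3.80e-05). Both probes had liver highest, except that with median centring the brighter one stood higher in forestomach (liver minus forestomach -0.12).

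In forestomach the smallest adjusted p of a member at any dose was 0.968. The arrays are given here by their glandular score. All 6 arrays of 1 slide had high scores, with 38.4 to 42.1% of spots well above background. The other forestomach arrays held 52.4 to 69.2%, so score, slide and signal cannot be fully told apart. Hmox1 ran from 1.2 to 1.65 on the 9 arrays with low glandular scores and from -0.17 to 1.78 on the 10 with high ones. Osgin1 ran from 1.09 to 1.35 on the former and from 0.35 to 1.14 on the latter. Nfe2l2 had medians of 2.04 and 2.32, and Gclc of 0.11 and 0.61, with the higher values on the arrays with high glandular scores. Hmox1 exceeded 1.5 on 2 of the high-score arrays, those of D1 mouse 6 (1.78) and D1 mouse 8 (1.53), both on other slides. On the slide with only high scores, Hmox1 averaged 0.72 at D0, 0.13 at D1, 0.51 at D2 and 0.78 at D3 (1 or 2 arrays each). With the glandular score as a covariate, an alternative chosen after these values were seen, limma called no member at any dose and the smallest p in the limma fit was that of Srxn1 at D1, where the change was 0.51 ± 0.14 (adjusted p = 0.25). The D1 change of Gclc was 0.44 without the score and 0.05 with it, while that of Slc7a11 was 0.17 and 0.53. Several D1 changes took the opposite sign with the score, each with an adjusted p above 0.05 both ways. Hmox1 went from -0.24 to 0.37 and from -0.09 to 0.46 on its second probe, and Osgin1 from -0.26 to 0.13. Ephx1 went from -0.05 to 0.30 and from -0.08 to 0.50 on its second probe, Keap1 from -0.11 to 0.10 and Nfe2l2 from 0.15 to -0.11. The part of glandular RNA in these values was not tested further. Leaving out the vehicle array with a high score (mouse 2) kept 8 calls of vehicle forestomach against lung and 8 against liver. Both counts include Slc7a11, whose probe passed the filter through forestomach alone.

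**Figure D4:**
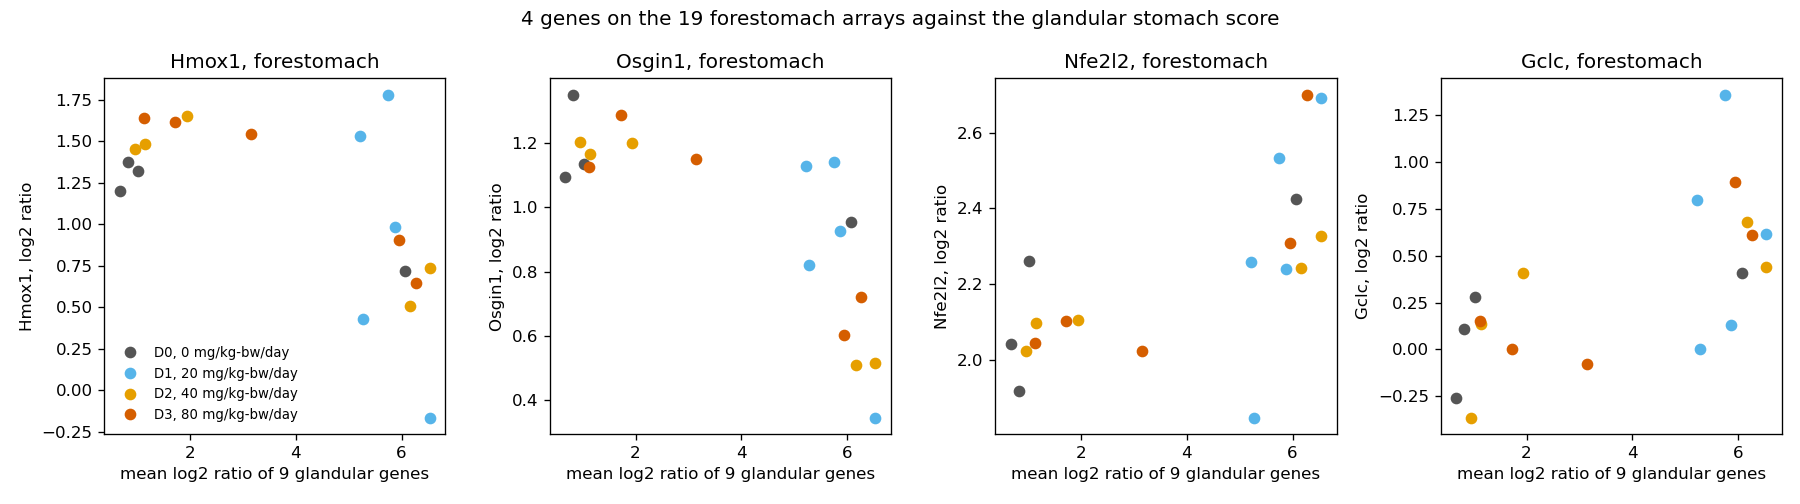
Log2 ratio of Hmox1, Osgin1, Nfe2l2 and Gclc on the 19 forestomach arrays against the mean log2 ratio of 9 glandular stomach genes, coloured by dose. Arrays fall on both sides of a gap between 3.15 and 5.22, Hmox1 and Osgin1 reach lower on the right, and all 5 D1 arrays lie on the right. So do all 6 arrays of the slide with the smallest shares of spots above background.

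The difference in D3 change between 2 tissues was called for no member. Over all probes the difference was called for 2.07% between lung and liver, 0.257% between lung and forestomach and 0.0453% between liver and forestomach. Gclc in liver against forestomach, at -0.67 ± 0.32 (SE), was the one with an unadjusted p under 0.05 in the limma fit (adjusted p = 0.69).

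Other genes of the pathway were read from lists of 36 further Nrf2 targets, 14 further regulators and 4 further epoxide hydrolases. None of the further targets was called at any dose or for the slope in any tissue. Liver had 36 of them tested, and each of the other tissues 35. The dose comparisons called at most 1.88% of all probes, so an absence of calls among so few genes lies near the background. The same holds for the slope on dose in liver (0.676%) and forestomach (0.0248%). The lung slope called 11.6% of all probes, so none of 35 lies below that share. Targets are counted by gene and shares by probe, and this difference was not tested. In forestomach at D3, 31 of the 35 had a change above 0, with a median of 0.12 against -0.01 over all probes. At D1 the count was 29 of 35 with a median of 0.18, and at D3 it was 20 of 35 in lung (median 0.02) and 23 of 36 in liver (median 0.06). The mean glandular score in forestomach was 2.15 at D0, 5.73 at D1, 3.35 at D2 and 3.64 at D3, and the mean fat score 4.57, 2.54, 3.37 and 2.57. Their part in the shift of the targets was not tested. The 2 with the smallest p there were Cbr1, a carbonyl reductase (0.37 ± 0.12, adjusted p = 0.78), and Ptgr1, a prostaglandin reductase (0.37 ± 0.17, adjusted p = 0.97). In liver at D3 the smallest p-values in the 3 lists were those of Crebbp, a Nrf2 coactivator (-0.29 ± 0.09, adjusted p = 0.13), and Abcc3, an efflux pump for conjugates (0.42 ± 0.19, adjusted p = 0.29).

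In lung, 2 of the 14 regulators had a slope on dose. Cul3, the scaffold of the ligase that Keap1 recruits to Nrf2, fell by 0.39 on the log2 scale over the dose range (SE 0.07, adjusted p = 0.0017). Prkca, a protein kinase C isoform, rose by 0.50 (SE 0.12, adjusted p = 0.0090). A share of 2 in 14 lies near the 11.6% of all lung probes with a slope. No further epoxide hydrolase was called, of 3 tested in liver and 4 in each of the other tissues. Between vehicle tissues, 29 of 36 further targets differed between lung and liver, 27 of 35 between lung and forestomach and 31 of 36 between liver and forestomach, where 46.6, 30.8 and 39.1% of all probes were called. The targets are counted by the brightest probe of each gene and the shares by all probes tested, so the sets are unlike.

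Pairs of members that act together were compared over the mice of a tissue, with each dose group centred on its mean, in 9 relations. Gclc and Gclm gave Pearson's r of 0.20 in lung, 0.39 in liver and 0.25 in forestomach, with permutation p-values of 0.40, 0.10 and 0.30 and adjusted values of 0.44, 0.31 and 0.38. Spearman's rho was 0.07, 0.51 and 0.16 (permutation p = 0.76, 0.028 and 0.51, adjusted 0.79, 0.12 and 0.66). Without the 2 arrays farthest from the median of Gclc, r was 0.05, 0.43 and 0.02. Within slides it was 0.29, -0.10 and 0.64 in lung, 0.55, 0.50 and 0.75 in liver, and 0.84, 0.31 and 0.66 in forestomach. Txnrd1 and Srxn1 ran opposite to each other in forestomach (r = -0.62, permutation p = 0.0052, adjusted 0.047; rho = -0.51, permutation p = 0.027, adjusted 0.12; n = 19). Without the 2 arrays farthest from the median of Txnrd1, r was -0.46. Within the 3 forestomach slides it was 0.03, -0.88 and -0.85, so the relation did not hold on 1 of them. On arrays with low and high glandular scores, Txnrd1 had medians of -0.51 and -0.32, and Srxn1 of 0.45 and 0.29. Dose centring leaves this mix in place, and its part in the relation was not tested. The same pair gave r of 0.32 in lung and -0.30 in liver (permutation p = 0.17 and 0.23, adjusted 0.31 and 0.34), with 0.49, 0.64 and 0.29 within the lung slides and -0.02, -0.61 and -0.41 within the liver slides. Its rho was 0.35 and -0.33 (adjusted permutation p = 0.29 and 0.32), and r without the 2 farthest arrays 0.30 and -0.33.

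Nfe2l2 and Keap1 gave r of -0.56 in forestomach (permutation p = 0.013, adjusted 0.059; rho = -0.44, permutation p = 0.066, adjusted 0.20), which fell to -0.21 without the 2 farthest arrays and was 0.46, -0.05 and -0.88 within slides. This relation rested on those arrays. On forestomach arrays with low and high glandular scores, Nfe2l2 had medians of 2.04 and 2.32, and Keap1 of 0.60 and 0.38. The part of tissue makeup in this relation was not tested. In lung the pair gave r of 0.33 and in liver 0.02 (permutation p = 0.16 and 0.95, adjusted 0.31 and 0.95), with 0.04, 0.57 and -0.56 within the lung slides and 0.19, 0.01 and 0.17 within the liver slides. Its rho was 0.26 and 0.06 (adjusted permutation p = 0.39 and 0.79), and r without the 2 farthest arrays 0.19 and 0.02.

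Over all 58 arrays, with each tissue centred on its mean, the genes whose pattern was most like Hmox1 were Metrnl (r = 0.80), C1qc (0.78), a complement gene of macrophages, and Rab8b (0.77). For Gclc they were Chka (0.61), Gsta3 (0.61), a glutathione transferase, and Hbegf (0.54). For Txnrd1 they were Map3k21 (0.61), Klc4 (0.61) and Fblim1 (0.59). For Ephx1 they were Notch3 (0.76), Ppp1r13b (0.76) and Tmcc3 (0.75), and for Nfe2l2 Smim15 (0.65), Herpud1 (0.62) and Agps (0.60). These are descriptions over arrays that share slides and tissue makeup.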

How the data were processed

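The deposited scanner files gave Agilent Feature Extraction 10.7.3.1 signals, and the authors used median signals without background subtraction, normalized within arrays by loess. The intensity values (median Cy5 and Cy3 signals, per the file headers) were taken from these files, log2 ratios were loess-normalized with control and outlier spots at weight 0, outlier spots were dropped and spots of a probe averaged. The authors' deposited log2 ratios (median per array -0.04 to -0.02, with centring and floor not given in the sources used here) correlated with these at 0.995 to 0.998 and served as an alternative. Tests used limma 3.58.1 in R 4.3.3, two-sided, with Benjamini-Hochberg adjustment over all probes tested, in place of the authors' permutation-based test, and were checked on simulated data. Dose comparisons used all arrays of a tissue, and tissue comparisons all 58 arrays. Correlations used 100000 permutations. The member genes and gene lists were chosen with earlier results of these data known. The named genes were all members, listed genes called or, failing that, the 2 with the smallest p at D3 per tissue, and the 3 genes most like 5 members by r. Samples were grouped by the labels' tissue and dose. Each tissue lay on 3 slides holding all dose groups. Alternatives were the authors' ratios, normexp, processed signals, median centring, no filter, no fold minimum, slide, 2 groups only, each mouse left out and mouse as a block. Same-numbered arrays came from 1 mouse, so numbers paired them across tissues. Their deviations from group means correlated at medians of 0.13 (lung and liver), 0.11 (lung and forestomach) and 0.06 (liver and forestomach), with a consensus correlation of 0.04. The number of arrays limits the precision.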

Additional observations from a re-analysis of the deposited data

Results flagged for a closer look

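The 10 genes were examined in 120 groups of 4 or 5 arrays, and in 8 groups the highest or lowest array stood far from its nearest neighbour against the group's range, where chance gives about 1 in 20. The lowest arrays in liver were Gclc at D2 (mouse 12, 2.11, next 2.56), Osgin1 at D1 (mouse 9, 2.61, next 3.40), Ephx1 at D1 (mouse 8, 1.06, next 1.52) and Ephx1 at D2 (mouse 13, 1.52, next 1.75). The highest in liver were Ephx1 at D0 (mouse 3, 1.73, next 1.5) and Hmox1 at D1 (mouse 8, -1.34, next -2.18). In lung they were Nfe2l2 at D2 (mouse 12, 1.33, next 1.01) and Hmox1 at D3 (mouse 16, -0.80, next -1.17). Liver mouse 8 at D1 thus stood apart for both Hmox1 and Ephx1.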

How the results depend on the processing

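Of the counts of member probes called, 0 in each dose comparison remained 0 under every alternative run, the glandular covariate included, and with each mouse left out (0 to 0). The lung slope called 1 member, Ephx1, with the authors' ratios (1), with slide as a block (1) and without D1 mouse 7 (0 to 1 over single mice). In the main setting this slope called 11.6% of all lung probes, so 1 of 11 member probes lies near that share. Shares over all probes under the alternatives are not given here. The slopes in liver and forestomach and the D3 differences between tissues called 0 throughout. With median centring, lung against liver called 3 of 11 in place of 8 (Gclm, Osgin1 and Nfe2l2). The share over all probes, 46.6% in the main setting, is not given for median centring. With 1 mouse left out the vehicle counts were 7 to 8 (lung and liver), 8 to 8 (lung and forestomach) and 8 to 9 (liver and forestomach). With mouse as a replicate block they were 8, 8 and 8, and 0 for the D3 differences, so the block changed no count of calls by over 1.5 times. Of the single called changes between vehicle tissues, none turned direction, and 12 fell short of a call, 8 of them under median centring. Srxn1 in lung against liver, at 1.53-fold in the main setting, fell under 1.5-fold with the authors' ratios (-0.49) and without mouse 2 (-0.53) or mouse 5 (-0.55). Without the 2 farthest arrays, r in forestomach went from 0.25 to 0.0173 for Gclc with Gclm, from -0.56 to -0.21 for Nfe2l2 with Keap1 and from -0.62 to -0.46 for Txnrd1 with Srxn1. The causes were not tested. Slides were nested in tissues, so vehicle tissues could not be fitted with slide as a block. Leaving out the forestomach array of mouse 2, added after seeing the data, left 8 calls against lung and 8 against liver. Slc7a11, which passed the filter through forestomach alone, is in both counts.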
